A study of Mus musculus with 32 samples.

Results

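Acute stress, 4sU against DMSO, is a comparison of 10 of the 32 libraries of a mouse study that labelled new RNA in the living amygdala. The 5 acute 4sU libraries came from wild-type mice under acute stress whose amygdala received 100 mM 4-thiouridine (4sU) dissolved in DMSO by stereotaxic injection 24 h before the RNA was taken. The 5 acute DMSO libraries came from wild-type mice under acute stress that received the solvent alone. Both groups therefore share the stress, the surgery, the DMSO, the tissue (amygdala of both sides) and the alkylation of the RNA, and differ by the labels in 4sU alone. Groups of the same injections at baseline (5 4sU and 4 DMSO libraries) and after chronic stress (4 and 3) are set beside them, and share no library with them. The sources used here do not give the kind of stress or the strain, age and sex of the mice. Replicates are separate samples by the labels, which name no animals, and a p-value therefore covers the spread between libraries, part of which may be technical.

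4sU is a uridine analogue that cells take up through nucleoside transporters, phosphorylate in the pyrimidine salvage pathway and build into RNA in place of uridine. After alkylation, reverse transcriptase pairs a labelled position with G instead of A, so a read from RNA made after the injection carries C where the genome has T. This readout is known as SLAM-seq, and it needs no separation of new from old RNA. T-to-C mismatches also arise from sequencing errors, editing and variants of the mouse strain, and DMSO libraries measure that background. A conversion rate is given here as conversions per 10000 covered T positions, and an excess is the mean 4sU rate minus the mean DMSO rate.

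The libraries fell into 2 numbered sets in the headers of the conversion files. The sample indexes of the 10 acute and baseline 4sU libraries ran from 0 to 9 without a gap, and those of the 16 other amygdala libraries ran from 0 to 15. The sets also differed in the share of reads counted in 3′ UTRs (16.1 to 17.4% against 18.2 to 23.9%) and in covered T positions per read (34.2 to 34.6 against 36.7 to 37.4). All 5 acute 4sU libraries are in the first set and all 5 acute DMSO libraries in the second, so 4sU and the set cannot be told apart here, and no value within a set exists. After chronic stress both injections are in the second set, and those values are given beside the acute ones. Amygdala markers were present: the 18 genes of the regional list summed to 1585 to 1888 CPM (exon counts scaled by the size of each library) in 4sU and 1136 to 1415 CPM in DMSO libraries, with at most 1 gene at 0, and Rspo2, Cyp26b1 and Prkcd were detected in all 10. DMSO libraries 1, 3 and 4 stood apart from the other 7 in Slc17a7, the vesicular glutamate transporter of cortical and basolateral amygdala neurons. They held 67.0, 15.4 and 70.4 CPM, against 423 and 648 CPM in DMSO libraries 2 and 5 and 445 to 895 CPM in the 4sU libraries. Some of the results that rest on these libraries are given without them as well.

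The conversion rate was higher in every 4sU library than in any DMSO library. The overall rate over all 3′ UTR intervals was 6.20, 4.76, 5.26, 4.63 and 4.00 conversions per 10000 covered T positions in 4sU libraries 1 to 5, and 2.73, 2.42, 2.28, 2.38 and 2.29 in DMSO libraries 1 to 5. The groups did not overlap, and 4sU library 1 was the highest and library 5 the lowest of the labelled ones. The means were 4.97 ± 0.82 and 2.42 ± 0.18 (SD, n = 5 each), a ratio of 2.06 (exact permutation test, two-sided, p = 0.00794, the smallest that 5 against 5 can give). Each rate rests on 244925276 to 347833440 covered T positions, so its counting error is small beside the spread between libraries: the 95% interval of 4sU library 1 has its upper end at 6.23. At baseline the rates were 4.78 ± 0.50 (SD, n = 5) and 2.75 ± 0.30 (SD, n = 4) with p = 0.0159 by the exact permutation test. After chronic stress they were 6.27 ± 1.35 (SD, n = 4) and 2.50 ± 0.14 (SD, n = 3), where the exact permutation test gave p = 0.0571, the smallest possible with 4 against 3. The overall rates of acute and baseline 4sU mice differed by 0.19 per 10000 (exact permutation test, p = 0.690).

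The share of converted reads and the conversions counted per converted read were both higher with 4sU. Reads with at least 1 conversion made up 1.503 ± 0.184% of 3′ UTR reads in 4sU and 0.916 ± 0.056% in DMSO libraries (SD, n = 5 each, exact permutation test, p = 0.00794). The conversions counted per converted read were 1.13 ± 0.05 and 0.978 ± 0.011 (SD, n = 5 each, exact permutation test, p = 0.00794). A ratio below 1 shows that some reads counted as converted added no counted conversion, and the cause was not tested. The value is therefore a ratio of 2 separate counts and not a direct count within reads. After chronic stress, within 1 numbered set, the conversions per converted read were 1.27 ± 0.10 (SD, n = 4) and 0.988 ± 0.007 (SD, n = 3). Over the family of 15 such comparisons the adjusted p of all 3 acute 4sU against DMSO contrasts was 0.0397 (exact permutation tests, Benjamini-Hochberg adjustment).

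**Figure D1:**
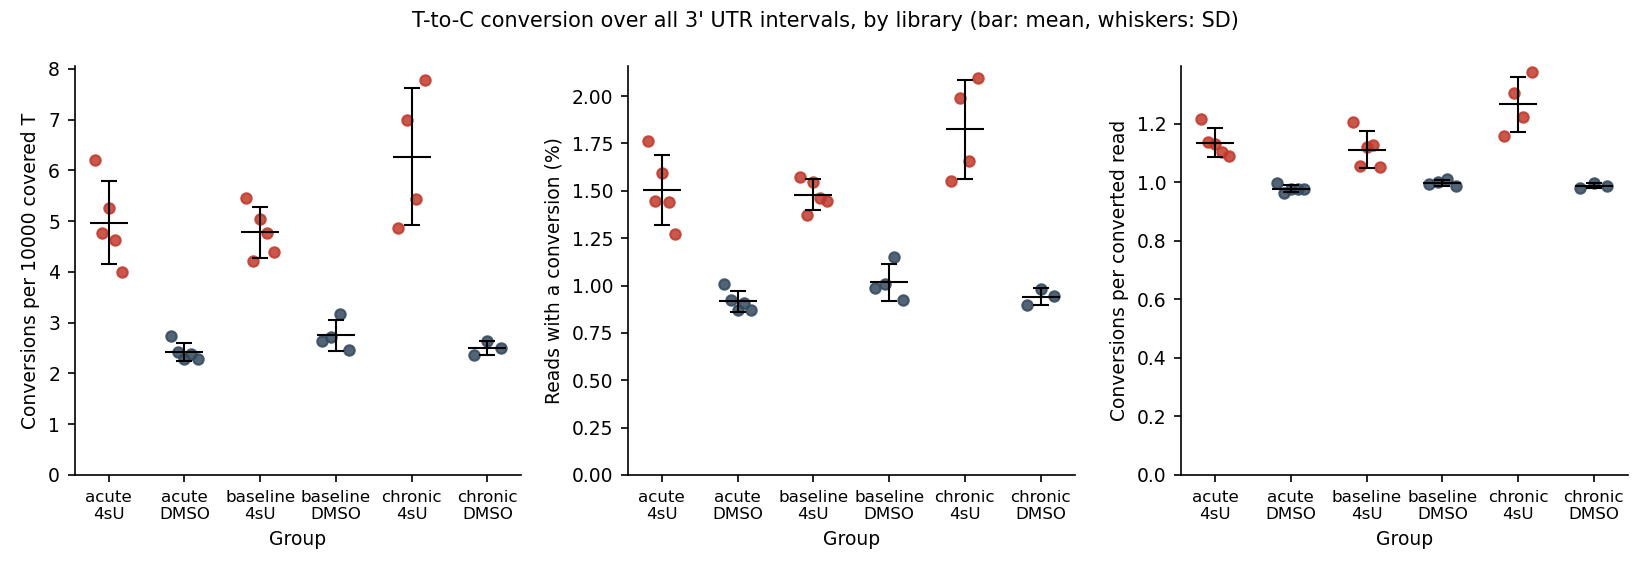
T-to-C conversion over all 3′ UTR intervals in the 26 amygdala libraries, by state and injection. The axes show conversions per 10000 covered T positions, the percentage of reads with a conversion, and conversions per converted read; points are libraries, bars means and whiskers SD. The acute 4sU libraries lie between 4.00 and 6.20 conversions per 10000 and the acute DMSO libraries between 2.28 and 2.73.

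Of 23996 3′ UTR intervals, 23894 carried a gene symbol, of 19262 genes. The most covered interval of each gene was used, and 8684 intervals had a mean of at least 2000 covered T positions, the minimum set for this measure, with some in every library; 8675 of these had any conversion and were tested. The conversion rate was higher with 4sU in 997 of them (11.5%) and lower in 12 (0.138%) at an adjusted p under 0.05 (edgeR quasi-likelihood test on conversions with covered T positions as exposure, Benjamini-Hochberg adjustment over all tested). The 5 labelled and 5 unlabelled libraries did not overlap for 718 3′ UTRs with 4sU above (8.28%) and 23 with 4sU below (0.265%). Among the 997, the median rate was 6.93 per 10000 with 4sU and 2.17 with DMSO. Their median log2 ratio was 1.61, beside 0.37 over all tested, and 67.1% of all tested lay above 0. 4sU library 1 was the highest of the labelled libraries at 553 of the 997 and library 5 the lowest at 493.

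The share of 3′ UTRs called rose with coverage, which sets the number of conversions behind a rate. The tested 3′ UTRs were divided by covered T positions into 5 groups of 1735. In the least covered group (2001 to 4341 per library) 1.56% were called higher, and in the following groups 2.77%, 3.98%, 10.1% and 39.0%. The median excess was 0.283 per 10000 in the least covered group and 1.28 in the most covered. The share called in the coverage group that holds a list's median is given below beside the counts of the lists described. Members of a list can lie in other coverage groups, so this share is only a rough guide. The excess was also concentrated: 10 3′ UTRs held 15.5% of the 277038 conversions by which the 4sU libraries exceeded the DMSO rates, 100 held 47.2% and 500 held 78.8%. Mbp alone held 3.73%, Slc1a2 1.91% and Scd2 1.67%.

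**Figure D2:**
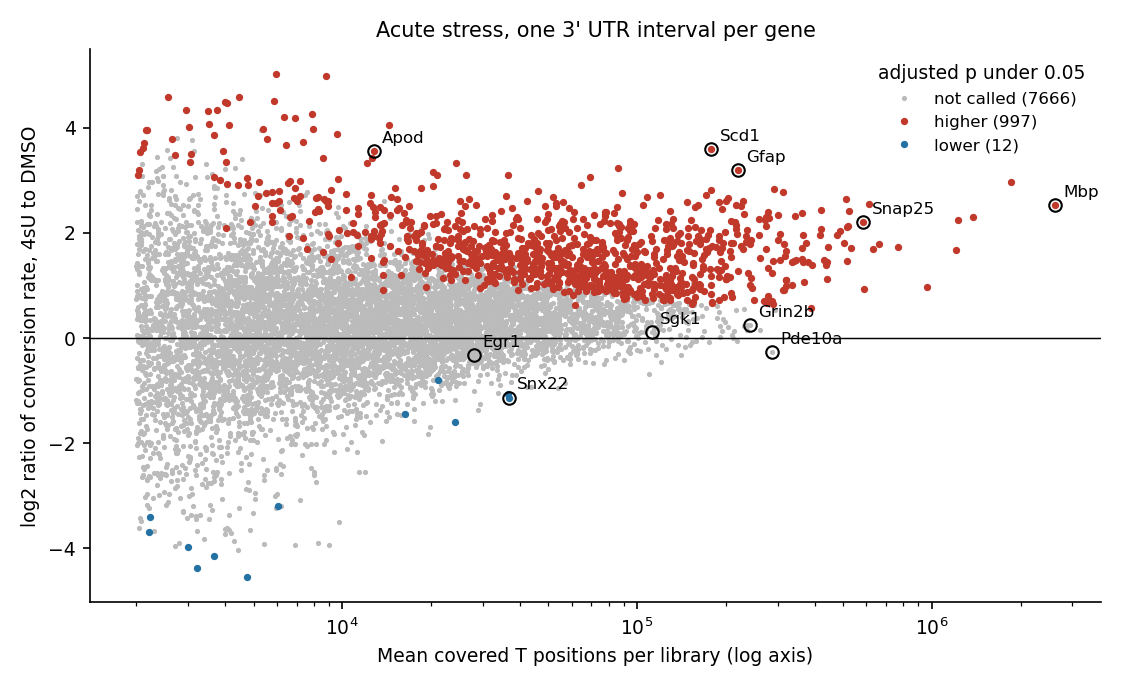
The log2 ratio of the conversion rate (4sU to DMSO, acute stress) for 8675 3′ UTRs against their mean covered T positions per library on a log axis. Red points are the 997 called higher, blue points the 12 called lower and grey points those not called; circles mark named genes. Scd1, Gfap, Mbp and Snap25 lie above 2, whereas Grin2b, Sgk1, Pde10a and Egr1 lie near or below 0.

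Genes of myelin were among those with the most excess conversions. The rate of Mbp, which encodes myelin basic protein and was the most covered 3′ UTR (2610800 T positions per library), was 19.03, 13.8, 13.5, 14.1 and 11.8 per 10000 in 4sU libraries 1 to 5 and 2.71, 2.55, 2.34, 2.60 and 2.32 in DMSO libraries 1 to 5. Every labelled library was thus above every unlabelled one, with library 1 the highest in both groups. The log2 ratio was 2.53 ± 0.17 (SE; edgeR adjusted p = 9.7e-49), and 12523 and 4356 conversions stand behind it. Mal, a membrane protein of myelin, has its interval at chr2:127633226-127634978 (mm10, minus strand) and read 15.2, 9.10, 13.3, 8.89 and 7.09 with 4sU and 2.58, 2.21, 1.95, 2.08 and 1.93 with DMSO. Its log2 ratio was 2.32 ± 0.20 (edgeR adjusted p = 4.3e-28) on 791 and 579 conversions, again with no overlap of libraries. After chronic stress, where both injections share a numbered set, Mbp read 19.2 against 2.61 and Mal 23.7 against 2.13. In the list of 18 genes of myelin and oligodendrocytes, all 18 were tested and 7 were called higher, among them Mbp, Mal, Mobp, Cldn11, Tspan2 and Cnp, with a median log2 ratio of 0.74. The median coverage of the list is in the most covered group, of which 39.0% were called, and 38.9% of the list was.

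Scd1, Scd2 and Apod had high rates, and were named for their excess or coverage. Scd1 and Scd2 encode stearoyl-CoA desaturases, which make monounsaturated fatty acids, and Apod encodes apolipoprotein D, a lipid carrier of glia. Scd1 (chr19:44394450-44397917, mm10) read 33.0, 21.4, 30.8, 21.0 and 15.1 per 10000 with 4sU and 1.94, 1.88, 1.58, 2.07 and 2.63 with DMSO, a log2 ratio of 3.59 ± 0.21 (edgeR adjusted p = 5.7e-60). Scd2 read 7.45 to 14.2 with 4sU and 2.02 to 2.53 with DMSO. Apod (chr16:31296192-31297339, mm10) read 57.8, 28.8, 12.7, 25.6 and 17.1 with 4sU and 0, 3.20, 1.68, 1.23 and 4.601 with DMSO. Its coverage was lower, with 126 and 19 conversions, and its labelled libraries were spread more widely than those of Mbp. Both groups were still separate, and the log2 ratio was 3.55 ± 0.43 (edgeR adjusted p = 4.8e-15). Of the 17 tested genes of cholesterol synthesis, the only list of lipid genes examined, only Hmgcs1, the cytosolic synthase for HMG-CoA, was called (5.88%, against 10.1% in its coverage group), and the list's median log2 ratio was -0.19, beside 0.37 over all tested.

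Astrocyte genes were called in 10 of 16 tested (62.5%, against 39.0% in the most covered group, where the list's median lies). They were Gfap, Slc1a3, Slc1a2, S100b, Mlc1, Aldoc, Acsbg1, Glul, Aqp4 and Ntsr2. Gfap, the intermediate filament of astrocytes, has its interval at chr11:102887336-102888675 (mm10) and read 33.7, 21.5, 19.7, 20.4 and 16.3 per 10000 with 4sU and 2.54, 2.35, 2.93, 2.58 and 1.82 with DMSO. Its log2 ratio was 3.19 ± 0.20 (edgeR adjusted p = 6.1e-52). Slc1a2, the main glutamate transporter of astrocytes, read 14.01, 9.94, 9.87, 10.2 and 7.65 with 4sU and 2.63, 2.16, 2.02, 2.16 and 1.92 with DMSO. Slc1a3, the second astrocyte glutamate transporter, read 11.4 to 22.2 with 4sU and 1.75 to 2.74 with DMSO. The groups were separate for all 3 genes. Serpina3n, a secreted protease inhibitor of reactive astrocytes, read 15.3 to 46.3 with 4sU and 3.13 to 6.91 with DMSO (log2 ratio 2.64 ± 0.35, edgeR adjusted p = 3.8e-12).

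Presynaptic genes had the largest share called of any list, 13 of 18 (72.2%, against 39.0% in the most covered group, where the list's median lies), with a median excess of 5.47 per 10000 beside 0.660 over all tested. Snap25, a SNARE protein of the presynaptic membrane, read 18.5, 13.3, 14.4, 11.2 and 11.2 with 4sU and 3.02, 2.26, 2.81, 3.81 and 2.94 with DMSO. Its log2 ratio was 2.21 ± 0.18 (edgeR adjusted p = 1.2e-31). Vamp2, the vesicle partner of Snap25, read 7.15 to 16.3 and 2.49 to 2.95, and Syt1, the calcium sensor of release, 6.03 to 11.8 and 1.60 to 2.26. None of the 3 showed an overlap between labelled and unlabelled libraries. The postsynaptic list, at a similar coverage (median 89940 T positions, against 117780 for the presynaptic list), had 5 of 18 called (27.8%, in the same coverage group) and a median log2 ratio of 0.30. Its called members were Camk2a, Camk2b, Dlg4, Nrgn and Shank1. Camk2a, the calcium-dependent kinase of excitatory synapses, read 14.2, 9.36, 11.3, 9.28 and 6.65 with 4sU and 2.93, 3.03, 2.54, 3.35 and 2.76 with DMSO (log2 ratio 1.80 ± 0.18, edgeR adjusted p = 2.6e-21). The difference between the lists was not tested.

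Other neuronal genes followed by type. Of 13 tested markers of GABAergic neurons 6 were called, among them Gad1, Gad2, Pvalb, Vip and Calb2, and of 13 glutamatergic markers 3 (Camk2a, Nptxr and Slc17a7). These shares were 46.2% and 23.1%, against 3.98% and 10.1% in the coverage groups that hold the medians of the lists. Coverage within the lists ran from 2043 to 261230 and from 4138.5 to 660030 T positions. Both ranges reach into the most covered group, of which 39.0% were called. Gad1, which makes GABA from glutamate, read 17.9, 10.8, 11.4, 8.63 and 8.34 per 10000 with 4sU and 2.29, 1.87, 1.69, 1.59 and 2.45 with DMSO. Its log2 ratio was 2.53 ± 0.21 (edgeR adjusted p = 1.1e-29). Slc17a7 read 14.6, 13.8, 12.6, 9.11 and 5.85 with 4sU and 8.79, 3.44, 2.78, 2.98 and 2.53 with DMSO. DMSO library 1, one of the libraries low in this transcript, overlapped the labelled range. Of 12 tested regional amygdala markers 5 were called (Dkk3, Wfs1, Meis2, Lypd1 and Etv1), which is 41.7%, against 10.1% in their coverage group. Wfs1, a membrane protein of the endoplasmic reticulum, read 9.75 to 20.6 and 1.26 to 3.91, and Dkk3, a secreted relative of Wnt inhibitors, 7.33 to 15.6 and 0.394 to 3.55. Of 16 tested markers of medium spiny neurons, the projection cells of the neighbouring striatum, only Rgs9 was called (6.25%, against 10.1% in their coverage group).

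Metabolic genes and the remaining well covered 3′ UTRs also held calls. Of 14 tested glycolysis genes 7 were called (Eno2, Aldoc, Tpi1, Pkm, Gpi1, Eno1 and Aldoa), where 10.1% of all tested in their coverage group were. Eno2, the neuronal enolase, read 9.41 to 13.2 with 4sU and 1.82 to 3.46 with DMSO. Aldoc, the aldolase of astrocytes, read 11.02 to 25.1 and 2.51 to 4.89. Ndrg4, a neuronal member of the NDRG family, read 6.51 to 12.5 and 2.26 to 3.09. Kif5a, a kinesin motor of axons, read 3.65 to 5.79 and 2.31 to 2.75, a log2 ratio of 0.98 ± 0.18 (edgeR adjusted p = 9.1e-07). Mbp, Scd2, Slc1a2, Kif5a, Ndrg4 and Camk2a, all among the most covered called 3′ UTRs, had no overlap between the groups, and their log2 ratios ranged from 0.98 to 2.53.

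Immune and low-coverage genes completed the 12 largest excesses. B2m, the invariant chain of MHC class I, read 42.9, 31.4, 7.75, 25.3 and 27.9 per 10000 with 4sU and 3.54, 2.90, 1.75, 0.613 and 3.35 with DMSO (log2 ratio 3.42 ± 0.45, edgeR adjusted p = 1.7e-12). H2-D1, a heavy chain of MHC class I, read 14.02 to 30.9 and 1.67 to 6.23, but shares sequence with other MHC class I genes, so its reads may be split among them. Ttr, the thyroxine carrier made by choroid plexus, read 10.4 to 15.8 with 4sU and 0 to 6.97 with DMSO. Spp1, osteopontin, had the largest excess of the named genes, and 20 of its 34 labelled conversions came from 4sU library 1: its libraries read 165, 0, 22.9, 30.0 and 37.6 with 4sU and 0, 1.80, 1.79, 3.63 and 2.96 with DMSO. Nubp2, Coro6, Cops9 and Vip rested on 22 to 54 labelled conversions each. Vip lost its call without 4sU library 1 or DMSO library 2, Cops9 lost it without 4sU library 1, and both lost it without DMSO libraries 1, 3 and 4. When reads with a conversion were counted in place of conversions, the log2 ratio of Cops9 was -0.49, and Ttr, H2-D1, Coro6 and Vip lost their calls, Ttr at a log2 ratio of 0.48. None of 9 tested markers of microglia and macrophages was called, with a median log2 ratio of 1.03 at a median coverage of 5473 T positions, the coverage group in which 2.77% of all tested were called. In lists of other cell types, 1 of 12 was called for oligodendrocyte precursors and 1 of 13 for endothelium and mural cells. The counts were 2 of 11 for choroid plexus and ependyma, 1 of 5 for meninges and 1 of 6 for hypothalamus and thalamus. In the coverage groups that hold the medians of these lists 1.56% to 3.98% were called. The share of each list was above that of its coverage group, but rests on 1 or 2 calls.

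**Figure D3:**
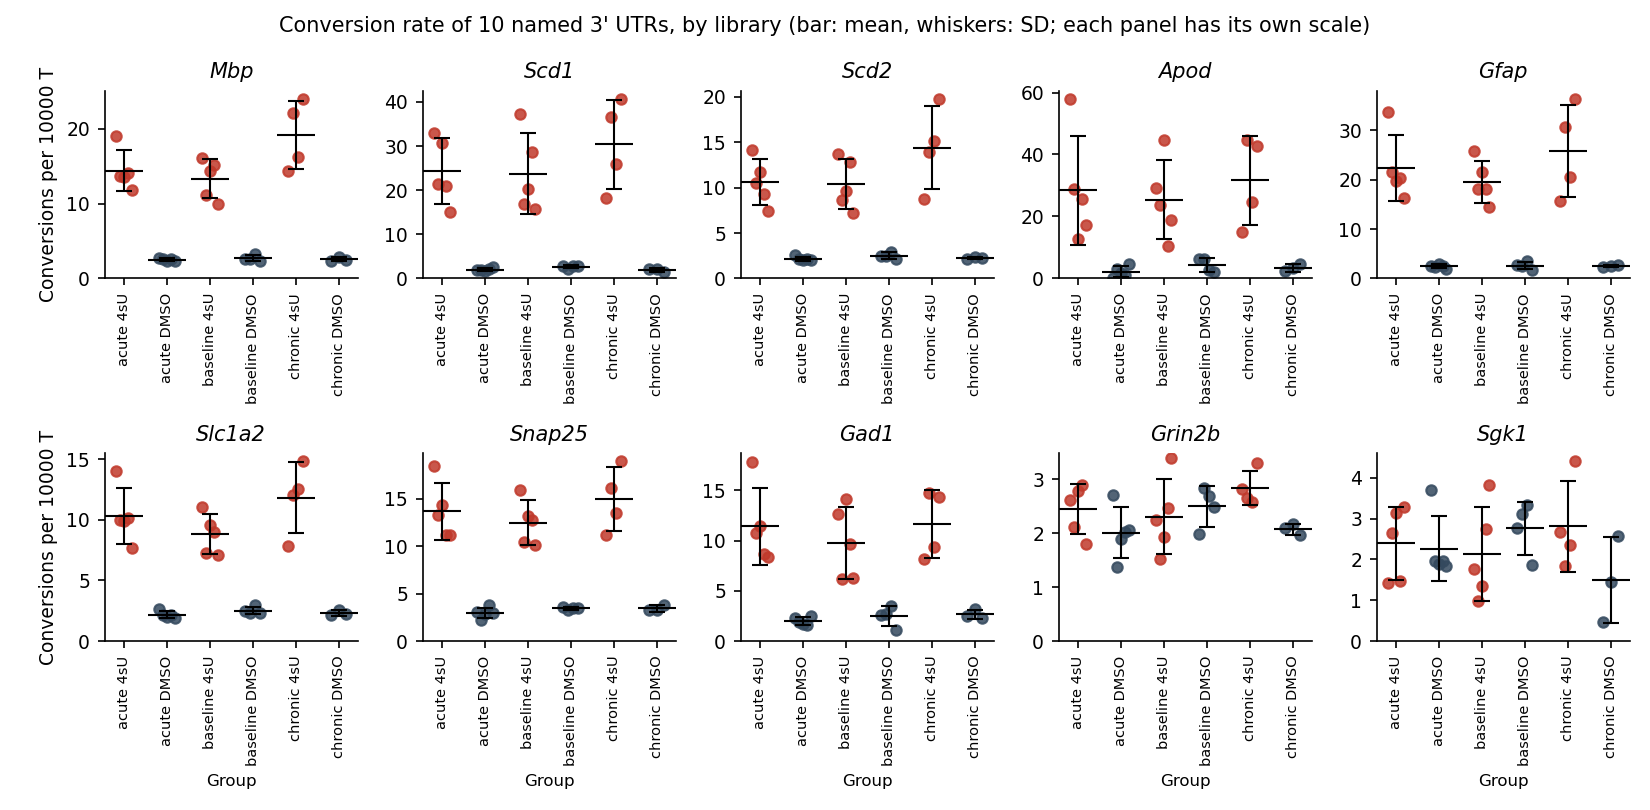
Conversion rates of 10 named 3′ UTRs in each of the 26 amygdala libraries, by state and injection, in conversions per 10000 covered T positions with a separate scale for each gene; bars are means and whiskers SD. Mbp reads 11.8 to 19.03 in acute 4sU and 2.32 to 2.71 in acute DMSO libraries, whereas the 2 groups overlap for Grin2b and Sgk1.

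Several long and well covered 3′ UTRs of synaptic and signalling genes were not called. The 6 most covered of these were Psd3, Pde10a, Celf2, Grin2b, Arpp21 and Phactr1, with 236070 to 294600 T positions per library. Grin2b, a subunit of the NMDA receptor, has an interval of 18876 bases at chr6:135713221-135732096 (mm10) and read 2.62, 2.11, 2.77, 2.89 and 1.81 with 4sU and 2.71, 1.38, 1.899, 2.02 and 2.06 with DMSO. Its log2 ratio was 0.25 ± 0.23 (edgeR adjusted p = 0.65), which is far below that of Gad1 or Gfap at a similar coverage. Pde10a, the phosphodiesterase of medium spiny neurons, read 1.69 to 2.53 and 1.82 to 2.91, with a log2 ratio of -0.27 ± 0.23 (edgeR adjusted p = 0.61). Celf2, an RNA-binding splicing factor, read 1.92 to 2.87 and 1.79 to 2.62. Arpp21, a regulated phosphoprotein of striatum and cortex, read 1.86 to 3.52 and 1.59 to 2.39. Phactr1, a regulator of protein phosphatase and actin, read 1.93 to 4.07 and 2.01 to 3.13. Psd3, an exchange factor for ARF GTPases, did not overlap at 2.63 to 3.01 and 1.72 to 2.38, but its adjusted p was 0.11 by edgeR, and DESeq2 called it.

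No immediate early or glucocorticoid-responsive gene was called higher in conversion, at coverages where few of all tested 3′ UTRs were called. Of 30 immediate early genes, the first genes transcribed when a neuron fires, 19 were tested and 0 were called, with a median log2 ratio of -0.33. Their median coverage was 6022 T positions, in the coverage group of which 2.77% were called. Fos and Npas4 were under the coverage minimum. Egr1, an activity-induced transcription factor, read 5.05, 2.23, 0.373, 0.829 and 1.71 per 10000 with 4sU and 1.51, 3.94, 1.19, 2.05 and 3.77 with DMSO, and Arc, a regulator of synaptic receptors, 0 to 6.62 and 0 to 6.48. Both overlapped widely, on 24 and 34 conversions for Egr1 and 10 and 6 for Arc. Of 28 glucocorticoid-responsive genes 22 were tested and 0 were called, with a median log2 ratio of -0.04 at a median coverage of 14483, in the coverage group of which 3.98% were called. Sgk1, a kinase induced by glucocorticoids, was well covered (112340 T positions per library) and read 1.42, 2.66, 3.14, 1.48 and 3.29 with 4sU and 3.69, 1.97, 1.88, 1.96 and 1.83 with DMSO. Its log2 ratio was 0.11 ± 0.29 (edgeR adjusted p = 0.91). Fkbp5, a chaperone partner of the glucocorticoid receptor, read 1.75 to 3.53 and 2.01 to 6.74, and Tsc22d3, which encodes the leucine zipper GILZ, 1.26 to 5.85 and 0.507 to 2.72. At baseline and after chronic stress 0 genes of either list were called higher as well. The counts for other regulatory lists were 0 of 14 clock genes, 0 of 10 genes of the unfolded protein response and 0 of 10 genes of RNA polymerases and the nucleolus. The interferon list had 0 of 5 and the ribosomal proteins 0 of 5, and of 12 tested p53 targets 1, Ccng1, was called (8.33%). In the coverage groups that hold the medians of these lists 1.56% to 10.1% were called. Of 14 tested genes of pyrimidine uptake and salvage, the pathway that handles 4sU, only Cmpk1, a UMP and CMP kinase, was called (7.14%, against 2.77% in its coverage group). It read 1.82 to 9.09 with 4sU and 0.839 to 2.65 with DMSO, and lost its call without 4sU library 1 or 3 and without DMSO libraries 1, 3 and 4.

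**Figure D4:**
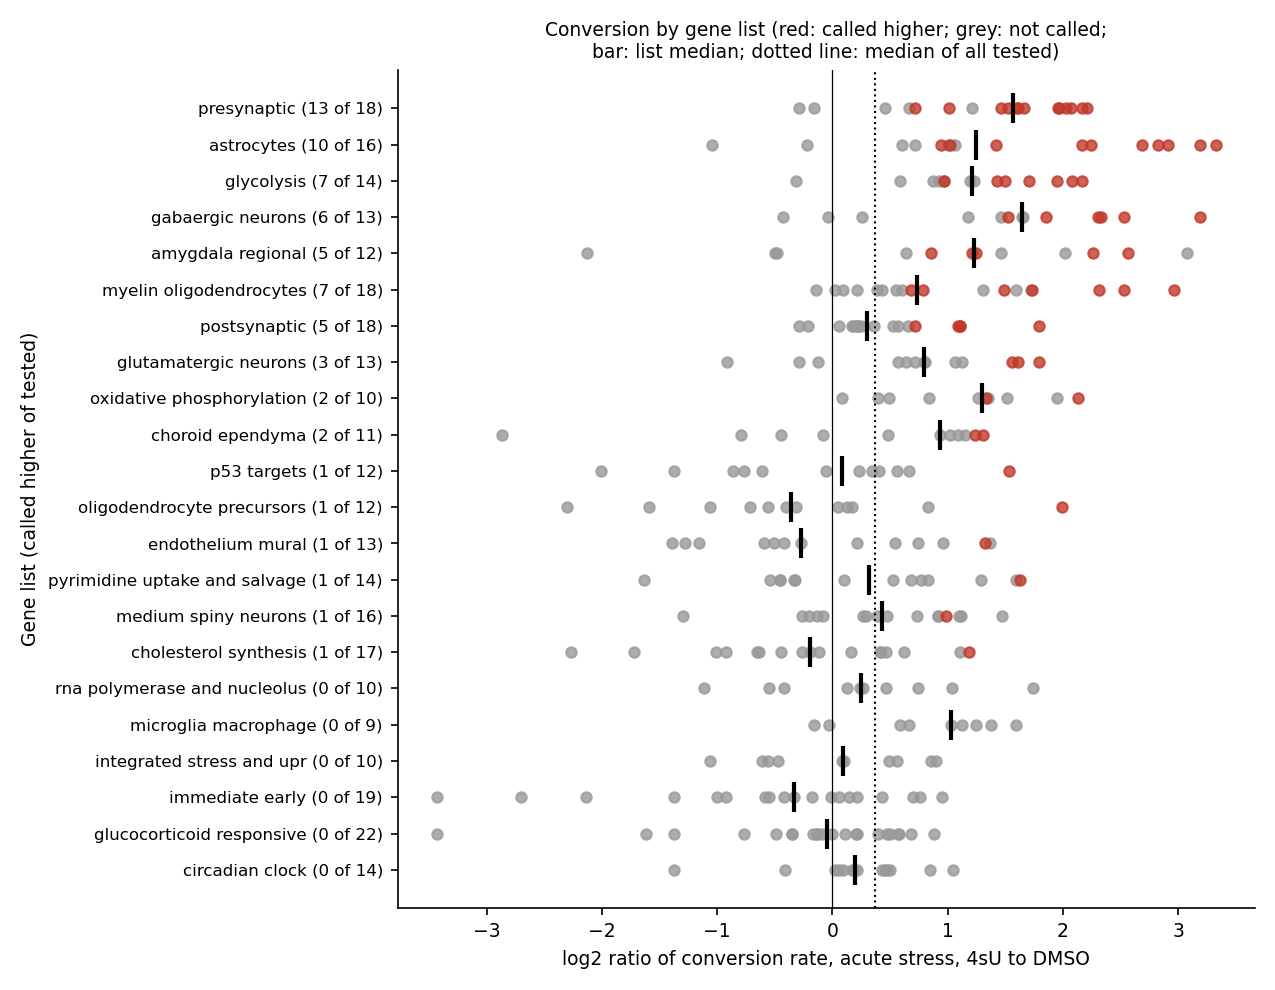
The log2 ratio of the conversion rate (4sU to DMSO, acute stress) for each tested member of the gene lists with at least 9 tested members, ordered by the share called higher; red points are called higher, grey points not called, bars are list medians and the dotted line the median of all 8675 tested, 0.37. Presynaptic genes (13 of 18) and astrocyte genes (10 of 16) are at the top, and the immediate early (0 of 19) and glucocorticoid-responsive (0 of 22) lists hold no red point. The lists differ in coverage. In the coverage group with the medians of the presynaptic and astrocyte lists 39.0% of all tested were called. In those of the immediate early and glucocorticoid-responsive lists 2.77% and 3.98% were.

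Of the 12 3′ UTRs with a lower rate under 4sU, the 6 with the smallest p are described. Snx22, a sorting nexin, has its interval at chr9:66065176-66067099 (mm10) and read 54.7, 55.3, 57.6, 55.0 and 52.1 per 10000 with 4sU and 154, 93.2, 161, 150 and 44.3 with DMSO. DMSO library 5 was below the labelled range and the other 4 far above it. The log2 ratio was -1.13 ± 0.18 (edgeR adjusted p = 8.1e-09), it was 0.35 when reads with a conversion were counted, and the call was lost without DMSO libraries 1, 3 and 4. Tmem150b, a membrane protein gene, read 12.9 to 18.4 and 25.6 to 39.0 without overlap, and Mink1, a kinase gene, 14.9 to 16.2 and 17.02 to 33.6. Mink1 lost its call without DMSO library 3, without DMSO library 4 and without DMSO libraries 1, 3 and 4. After chronic stress, within 1 numbered set, these differences were not seen: Snx22 read 122 with 4sU and 114 with DMSO, Tmem150b 31.0 and 26.8, and Mink1 28.1 and 30.4. Rgma, Zfp202 and Cdc42ep1, called lower on 55, 18 and 16 DMSO conversions, each lost the call under at least 1 alternative. Trnt1, the CCA-adding tRNA enzyme, was called higher from a high background, at 66.2, 27.1, 45.5, 47.3 and 50.3 with 4sU and 21.7, 17.7, 22.6, 20.6 and 23.6 with DMSO. After chronic stress it read 24.9 with 4sU and 27.4 with DMSO, so its difference was seen between the numbered sets and not within one. The part of the sets in any single 3′ UTR was not tested.

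The 3′ UTRs called under acute stress were largely called in the other states. At baseline 613 of 8670 3′ UTRs were higher with 4sU (7.07%), and 546 of them were among the 997, which is 89.1% of the baseline and 54.8% of the acute calls. After chronic stress 1172 of 8657 were higher (13.5%), and 768 were shared, which is 65.5% of the chronic and 77.0% of the acute calls. Of the 997, 525 were called in all 3 states. The chronic comparison lies within 1 numbered set, and there the median log2 ratio of the acute calls was 1.79. The difference of the 4sU effect between acute stress and baseline was tested directly. By edgeR 0 of 8684 3′ UTRs passed, with 508 (5.85%) at an unadjusted p under 0.05, and DESeq2 called 0 as well. No 3′ UTR was thus shown to gain more or fewer conversions under acute stress than at baseline with these libraries.

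Expression was compared in the same 10 libraries, on exon counts of 16840214 to 21228741 per library. With 4sU, 2821 of 15498 tested genes were higher (18.2%) and 3229 lower (20.8%) at an adjusted p under 0.05 (edgeR quasi-likelihood test, TMM scaling, Benjamini-Hochberg adjustment). At baseline, where the injections also lie across the numbered sets, 4511 of 15607 were higher (28.9%) and 4491 lower (28.8%). After chronic stress, where they lie within 1 set, edgeR called 0 of 15700 in either direction (0%), with 1082 (6.89%) at an unadjusted p under 0.05. That comparison has fewer libraries, 4 against 3, of uneven tissue content. In its 4sU libraries markers of medium spiny neurons summed to 961 to 5021 CPM and those of choroid plexus and ependyma to 896 to 5004 CPM. A count of 0 there does not show that no gene differed. Of the acute calls 88.1% of the higher and 87.3% of the lower were called in the same direction at baseline, where they make up 55.1% and 62.8% of the calls. An effect of 4sU on expression and a difference between the sets cannot be told apart in the acute comparison. For the difference of the effect between acute stress and baseline edgeR called 0 of 15995 genes, with 916 (5.73%) at an unadjusted p under 0.05, and DESeq2 called 21. Without DMSO libraries 1, 3 and 4 edgeR called 313, and leaving out single libraries gave 0 to 12. Against DMSO libraries 2 and 5 alone, 2323 genes were higher (14.5%) and 2653 lower (16.6%). These libraries were the lowest of the 10 in markers of medium spiny neurons, with summed levels of 1783 and 1593 CPM, against 2925 to 6475 CPM in the other DMSO libraries and 2912 to 4807 CPM in 4sU libraries. Of the 16 markers 12 were higher against DMSO libraries 2 and 5 alone, with a median log2 fold change of 1.06, and 0 were higher and 1 lower against all 5. The part of this difference in other genes was not tested.

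Genes of myelin fell together. Of 18 tested members of the myelin and oligodendrocyte list 17 were lower with 4sU and 0 higher, with a median log2 fold change of -1.43, beside -0.01 over all tested. Without DMSO libraries 1, 3 and 4, 16 were lower, with a median of -1.38. Tspan2, a tetraspanin of myelin, was at 158, 157, 111, 118 and 124 CPM in 4sU libraries 1 to 5 and at 439, 540, 651, 545 and 404 CPM in DMSO libraries 1 to 5. The groups did not overlap, and the log2 fold change was -1.95 ± 0.15 (SE; edgeR adjusted p = 2.9e-05). Mbp was at 3838 to 4477 CPM with 4sU and 6540 to 10268 CPM with DMSO (log2 fold change -1.08 ± 0.13, edgeR adjusted p = 0.00016). Ugt8a, which makes the galactolipids of myelin, was at 58.5, 68.7, 51.0, 52.4 and 51.4 CPM and at 210, 220, 324, 269 and 187 CPM, a log2 fold change of -2.10 ± 0.16 (edgeR adjusted p = 2.2e-05). Mal was at 267 to 348 and 782 to 1250 CPM and fell by 1.78 on the log2 scale. The list's median was -0.83 at baseline and 0.33 after chronic stress, where Tspan2 had a log2 fold change of 0.55 (edgeR adjusted p = 0.089). In bulk tissue, fewer oligodendrocytes, less of these RNAs per cell and a difference between the numbered sets cannot be told apart here. The regional amygdala list differed as well. Of its 18 genes 7 were higher with 4sU (38.9%, against 18.2% of all tested) and 2 lower, with a median log2 fold change of 0.67. Without DMSO libraries 1, 3 and 4 there were 6 and 0, with a median of 0.38. The part of the tissue taken in the fall of the myelin genes was not tested.

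Genes of glutamatergic neurons and synapses were among those that rose. Of 16 glutamatergic markers 7 were higher (43.8%, against 18.2% of all tested) and 0 lower, with a median log2 fold change of 0.72. Against DMSO libraries 2 and 5 alone, 6 were higher and 2 lower, and the median was 0.37. The summed level of the list was 3142 to 4286 CPM in 4sU libraries and 1238 to 3582 CPM in DMSO libraries. Nptxr, the neuronal pentraxin receptor, was the largest rise, at 116, 70.7, 108, 88.3 and 107 CPM with 4sU and 8.35, 12.6, 3.75, 8.53 and 38.3 CPM with DMSO. Its log2 fold change was 2.77 ± 0.50 (edgeR adjusted p = 0.0013), and 1.94 against DMSO libraries 2 and 5 alone. After chronic stress Nptxr had a log2 fold change of -0.22. Slc30a3, the zinc transporter of glutamatergic vesicles, was at 32.3 to 53.7 CPM with 4sU and at 3.86, 18.2, 2.17, 5.82 and 19.2 CPM with DMSO, lowest in DMSO libraries 1, 3 and 4. Slc17a7 itself did not pass (log2 fold change 1.43 ± 0.76, edgeR adjusted p = 0.16). Of 18 presynaptic genes 8 were higher (44.4%) and 0 lower, and of 18 postsynaptic genes 7 were higher (38.9%) and 1, Gria2, lower. The medians were 0.36 and 0.35. Without DMSO libraries 1, 3 and 4, where 14.5% of all tested were higher, 4 presynaptic and 6 postsynaptic genes were.

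**Figure D5:**
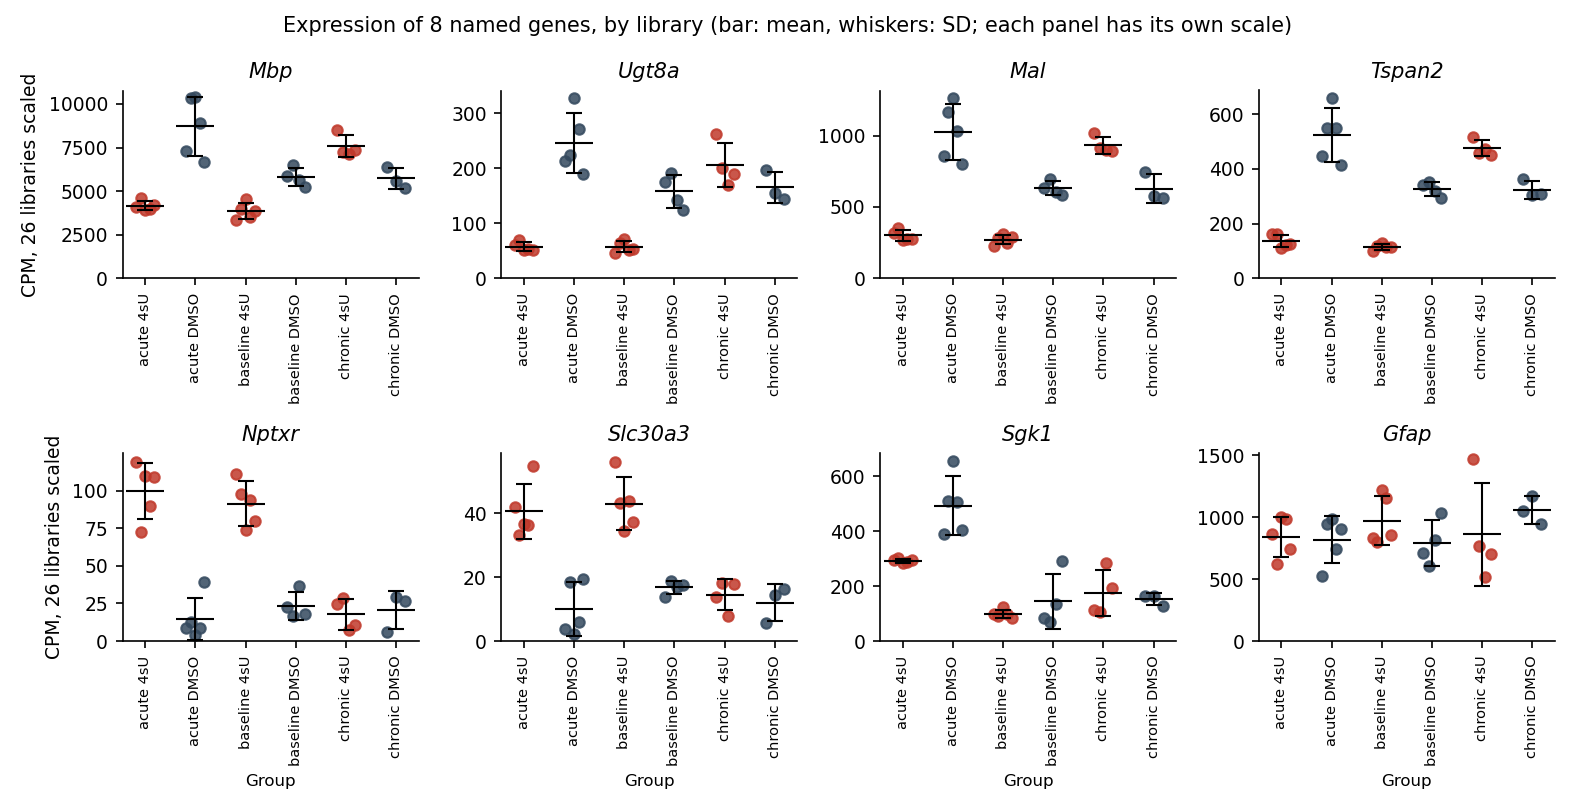
Expression of 8 named genes by state and injection in CPM, all 26 amygdala libraries scaled together by TMM, with a separate scale for each gene; points are libraries, bars means and whiskers SD. Mbp, Ugt8a, Mal and Tspan2 are lower with 4sU in acute stress and at baseline, with Mbp means of 4163 and 8711 CPM in acute stress, and not after chronic stress, where Mbp means are 7575 and 5731 CPM.

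Other large changes were of mixed kinds. Among the 12 largest rises were Ccn3, a secreted matrix protein (log2 fold change 2.20 ± 0.32, edgeR adjusted p = 0.00039), and Bmp3, a ligand of the BMP family, at 7.12 to 17.5 CPM with 4sU and 1.24 to 5.42 CPM with DMSO. Rrad, a small GTPase, was at 3.104 to 5.24 and 0.922 to 1.42 CPM, and Zfp853, a zinc finger gene, at 6.43 to 10.7 and 1.29 to 3.20 CPM. Rtn4rl2, a relative of the Nogo receptor, was at 0.585 to 20.3 CPM with DMSO and lost its call when any of 4sU libraries 1, 3, 4 and 5 or DMSO libraries 1 and 4 was left out. Among the 12 largest falls were Lsm5, a subunit of the ring that binds U6 RNA, at 0.104 to 0.490 CPM with 4sU and 1.59 to 5.94 CPM with DMSO, and Rpl22l1, a paralog of a ribosomal protein, at 11.9 to 16.5 and 36.1 to 108 CPM. Pvalb, the calcium buffer of fast-spiking interneurons, was at 15.8 to 27.6 and 43.2 to 186 CPM. Top2a, a topoisomerase of dividing cells, was at 1.25 to 2.18 and 3.73 to 8.43 CPM.

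The glucocorticoid-responsive list held calls at shares below those of all tested genes, 18.2% higher and 20.8% lower. The immediate early list held a larger share of higher calls than all tested genes, and 0 lower. Of 28 glucocorticoid-responsive genes 2 were higher (7.14%) and 5 lower (17.9%), with a median log2 fold change of 0.01. Sgk1 was at 286, 295, 277, 284 and 287 CPM with 4sU and at 382, 500, 646, 503 and 396 CPM with DMSO. The labelled libraries were all below the unlabelled ones and close to each other, and the log2 fold change was -0.76 ± 0.13 (edgeR adjusted p = 0.0011). Tsc22d3 fell by 0.86 and Arrdc3, an arrestin-domain protein, by 1.28 on the log2 scale. Fkbp5, at 99.0 to 113 and 91.5 to 112 CPM, did not pass (log2 fold change 0.07 ± 0.08, edgeR adjusted p = 0.5). Of 30 immediate early genes 7 were higher (Sik1, Nptx2, Egr4, Nr4a1, Junb, Fosb and Fosl2, 23.3%) and 0 lower. Their median was 0.49, beside -0.01 over all tested. Against DMSO libraries 2 and 5 alone, where 14.5% of all tested were higher and 16.6% lower, 9 were higher and 2 lower. The median of the list was 0.32 there. Nptx2, a secreted pentraxin, was at 27.4 to 72.0 CPM with 4sU and 7.79 to 18.3 CPM with DMSO. Fos, Arc, Npas4 and Egr1 had log2 fold changes of 0.50, 0.42, 0.51 and 0.42 and did not pass (edgeR adjusted p = 0.076, 0.051, 0.16 and 0.25). Against DMSO libraries 2 and 5 alone Fos, Npas4 and Egr1 passed, with edgeR adjusted p of 0.023, 0.0092 and 0.0081, and Arc did not. This subset was chosen after seeing the data, and its DMSO libraries were the lowest of the acute libraries in markers of medium spiny neurons.

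Genes of nucleoside handling were called in both directions, at shares near those of all tested genes. Of 21 tested genes of pyrimidine uptake and salvage 4 were higher and 5 lower, with a median log2 fold change of 0.11. Slc29a1, the equilibrative nucleoside transporter, was at 30.0 to 35.6 CPM with 4sU and 23.7 to 34.9 CPM with DMSO (edgeR adjusted p = 0.2). Uck2, a uridine kinase, was at 10.4 to 12.3 and 8.93 to 12.6 CPM (edgeR adjusted p = 0.94). Of 20 genes of RNA polymerases and the nucleolus 7 were higher (35%, above the share of all tested) and 4 lower (20%). Of 20 targets of p53, the DNA damage response factor, 3 were higher (15%) and 4 lower (20%). The 20 genes of the unfolded protein response had 3 higher and 3 lower (15% each). Shares were below those of all tested for 25 interferon-stimulated genes, with 0 higher and 1 lower (4%). They were also below for 20 genes of reactive glia and injury, with 1 higher and 1 lower (5% each). Gfap was at 604 to 982 CPM with 4sU and 517 to 973 CPM with DMSO (log2 fold change 0.03 ± 0.18, edgeR adjusted p = 0.92). Of 18 microglia markers 0 were higher and 7 lower (38.9%, against 20.8% of all tested), and of 17 astrocyte markers 3 were higher (17.6%) and 5 lower (29.4%). The medians of these lists were -0.39 and -0.02. Ttr was at 1421 to 3060 CPM with 4sU and at 2.27, 5363, 1133, 315 and 2476 CPM with DMSO, lowest in DMSO library 1.

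The calls of both readouts were set side by side for 8617 genes tested in each. Of 993 genes with a higher conversion rate 157 were higher in expression (15.8%), 350 lower (35.2%) and 486 not called (48.9%). Of 7612 genes not called in conversion the shares were 21.3%, 25.4% and 53.4%. Mbp and Mal were thus among those with a higher conversion rate and a lower level, Nptxr among those higher in both, and Gfap among those with a higher conversion rate whose level did not pass the test. Sgk1 was lower in level with a conversion rate that did not pass. Both readouts lie across the same numbered sets and come from the same libraries, so these shares are a description.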

How the data were processed

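Per the labels' protocols, RNA was extracted with Trizol and alkylated, and the VAHTS Universal V8 kit served for library preparation. Conversion tables were made with slamdunk 0.4.3 over RefSeq 3′ UTR intervals, per the file headers. They give counts of covered T positions, conversions, reads and converted reads, a conversion rate as a fraction, and a CPM column of reads, per the file headers. Rates and tests here used the deposited counts. The CPM column gave only the share of reads counted in 3′ UTRs. Exon counts per gene were deposited as whole numbers without normalization, and featureCounts 2.0.1, HISAT2 2.1.0, cutadapt 3.1, SAMtools 1.9 and the mm10 build are listed in the submitters' processing notes. The sources used here do not give base quality, variant, strand and multiple-match settings, and overlapping, antisense and paralogous genes are uncertain. Of the 32 libraries, the 6 of auditory cortex were not used here.

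RefSeq accessions were matched to symbols with a RefSeq gene table (GRCm38.p6), and the chosen interval of each gene kept 87.6% of covered T positions. For conversions the test was that of edgeR 4.0.16, run in R 4.3.3 (robust quasi-likelihood, log of covered T positions as offset) and for exon counts the same test with TMM and filterByExpr; SE is the log2 change over the root of F. Only the 10 acute libraries entered the main fits. Chi-square per degree of freedom between replicates was 12.8 to 118 in acute DMSO and 5.78 to 17.6 in acute 4sU, so all 10 libraries were counted separately. Adjusted p-values use Benjamini-Hochberg over all tested. DESeq2 1.42.0, other coverage minimums, intervals, scalings, filters and fits, and each library left out were tried as alternatives. Overall rates were compared by exact permutation (SciPy 1.17.1), and tests were first tested on simulated data. Intervals are Wilson at 95% and cover counting error only, since reads carry no molecular identifiers. Figures used matplotlib 3.10.9.

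The members, the 29 gene lists and the alternatives were chosen with earlier results of these data known. Named genes are, for conversion, the 12 called 3′ UTRs with the largest excess, the 8 called and 6 not called with most coverage and up to 6 called lower. For expression they are the 12 largest rises and 12 largest falls with at least 1 CPM and no overlap of libraries. To both come 14 fixed genes and up to 3 members of each list, predicted genes are left out, and some genes that these rules select are not reported here. Replicate numbers did not pair the libraries: the correlations of same-numbered deviations in expression ran from -0.294 to 0.147.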

Additional observations from a re-analysis of the deposited data

Results flagged for a closer look

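Of 170 groups of 5 libraries examined, 17 held a library far from the other 4 by Dixon's criterion, and chance flags about 1 in 20 groups. DMSO library 1 stood high in the conversion rate of Scd2 (2.53 per 10000), Serpina3n (6.91), Slc17a7 (8.79) and Sgk1 (3.69). 4sU library 1, which had the highest overall rate, stood high for Wfs1 (20.6), Spp1 (165) and Zfp202 (3.53) and low for Fkbp5 (1.75). 4sU library 2 stood high for Pde10a (2.53). DMSO library 5 stood high for Cops9 (9.47) and Nubp2 (3.24), both on few conversions. In expression, 4sU library 4 stood high for Egr1 (188 CPM) and Top2a (2.18 CPM), and DMSO library 5 for Nptxr (38.3 CPM). DMSO library 2 stood high for Rpl22l1 (108 CPM), low for Uck2 (8.93 CPM), and high in the share of reads counted in 3′ UTRs (23.9%).

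Among 158 pairs of states compared for named genes, 4 genes were flagged, all between acute and chronic stress. In each, every 4sU library was below every DMSO library under acute stress and above every DMSO library after chronic stress. Under acute stress 4sU lay below DMSO without overlap in 15.7% of all tested genes. The share separated after chronic stress was not counted, and edgeR called 0 of 15700 genes there. The chronic log2 fold changes were 0.40 for Mbp, 0.55 for Tspan2, 0.57 for Mal and 0.28 for Tsc22d3, against -1.08, -1.95, -1.78 and -0.86 under acute stress. The difference between these effects was not tested, and the acute comparison lies across the numbered sets of libraries whereas the chronic one lies within 1 set.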

How the results depend on the processing

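Direction was kept by the overall rate, the share of converted reads, the conversions per converted read and the counts of 3′ UTRs and genes under every alternative run. Leaving out single libraries gave differences of 2.24 to 2.79 conversions per 10000, 0.522 to 0.644 percentage points and 0.137 to 0.168 conversions per converted read, and counts of 846 to 1046 3′ UTRs higher and 9 to 12 lower, and of 2330 to 3798 genes higher and 2708 to 4238 lower. The median over intervals gave a difference of 0.668 per 10000 in place of 2.55, since the excess is held by few 3′ UTRs. With the replicate block, whose numbers did not pair the libraries, the differences of 2.55, 0.586 and 0.157 had p = 0.0625 by exact sign flips. That is the smallest p that sign flips of 5 pairs can give. With the block 903 3′ UTRs were higher and 7 lower, with 2290 genes higher and 2461 lower. Without DMSO libraries 1, 3 and 4, an alternative chosen after seeing the data, the overall difference was 2.62 with p = 0.0952, the smallest that 5 against 2 allow by exact permutation, and 674 3′ UTRs were higher and 7 lower. Counting reads with a conversion gave 827 higher and 21 lower, turned Cops9 to -0.49 and turned Snx22 to 0.35; the cause was not tested. The expression fit of 4 groups gave 3756 genes higher and 3969 lower. For the difference from baseline in expression DESeq2 gave 21 genes, the fit without DMSO libraries 1, 3 and 4 gave 313, and leaving out single libraries gave 0 to 12, against 0; the cause was not tested. The overall difference between acute and baseline 4sU mice ran from -0.12 to 0.43 as single libraries were left out. Depth limits the rate of a 3′ UTR near the minimum of 2000 covered T positions, where a few conversions decide it.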
